A study of Mus musculus with 8 samples.

Results

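MIN6 is a mouse insulinoma line that makes and secretes insulin and serves as a stand-in for the pancreatic β cell. The comparison described here is that of batch 2 with batch 1 of a transfection experiment in these cells, 4 libraries against 4, chosen by the batch label that all 8 of the 8 libraries carry. The controls were transfected with pcDNA 3 without an insert, and the remaining cultures with pGloMyc-Klf4, from which the zinc-finger transcription factor Klf4 is made. Each batch held 2 libraries of each kind. All cells were labelled wild type, and transfection with Lipofectamine 3000, a lipid carrier of DNA, lasted 48 h in both batches. Replicate numbers 1 and 2 of each plasmid group were labelled batch 1, and numbers 3 and 4 were labelled batch 2. The labels do not say what a batch was, so culture, passage, transfection day, extraction, library preparation and sequencing run cannot be told apart. The promoter that drives Klf4 is not named, and the plasmids differ in their backbone by name. The labels call the libraries biological replicates of 1 line, so p-values measure the spread between such cultures and not between animals. A single batch stood on each side, so p-values do not measure the spread between batches and speak only of these batches.

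A β cell takes up glucose through the transporter Slc2a2, and metabolism of that glucose closes potassium channels, opens calcium channels and releases insulin stored with chromogranins in dense-core granules. Insulin is folded in the endoplasmic reticulum in such amounts that chaperones and the unfolded protein response, run by Xbp1, Atf6 and Eif2ak3, are active in normal β cells. Cultured β-cell lines are known to lose part of this specialised programme with passage and to respond at the level of RNA to glucose, oxygen, sterols and cell density.

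Libraries of polyadenylated RNA held 45417853 to 52731176 counted reads. The total count (exact permutation p = 0.111), the number of genes detected (0.278) and the mitochondrially encoded share of counts (0.833; 4.10% ± 0.158 in batch 1, 4.05% ± 0.276 in batch 2; SD, n = 4) overlapped between the batches. Counts of 2 libraries of a plasmid group differed by 17.4 to 23.3 (chi-square per degree of freedom) across batches and by 4.23 to 5.71 within a batch, so none was a copy of another. The transfected gene itself, Klf4, stood at 42.8, 42.3, 39.1 and 36.1 CPM (the count relative to library size, scaled by TMM factors here and throughout) in control replicates 1 to 4. In the Klf4-transfected replicates it stood at 4870, 4529, 4900 and 5849 CPM, so each library matched its plasmid label.

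Batch 2 differed from batch 1 across a large part of the transcriptome, and most differences were small. With plasmid as a term, 4576 of 18266 tested genes changed at an adjusted p under 0.05 in edgeR's quasi-likelihood test, which is 25.1% of them. Of these, 2449 genes (13.4% of those tested) were higher in batch 2 and 2127 (11.6%) were lower. Among the higher genes the log2 fold change had a median of 0.185, among the lower ones of -0.223 and over all tested genes of 0.01. At least 1 log2 unit separated the batches for 73 higher and 96 lower genes. Calls were more frequent among better expressed genes, with 3952 of 11669 called where the log2 CPM averaged 2 or more. Shares of gene lists below are set against all tested genes and not against genes of like expression. Log2 fold changes are batch 2 over batch 1 throughout.

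The same comparison was made within each plasmid group, 2 libraries against 2. In the control libraries alone 3429 of 17716 tested genes changed (19.4%), 1802 higher and 1627 lower. The Klf4 libraries, none of which is among the controls, gave 3067 of 18904 (16.2%), 1585 higher and 1482 lower. This second count moved to 1697 without Klf4 replicate 1 and to 1556 without Klf4 replicate 2. Of the genes tested in both groups, 1632 were called in both, which is 47.7% of the control calls and 56.1% of the Klf4 calls. The sign was the same for 1594 of the shared calls and opposite for 38. Among genes tested in both groups, 11464 had a log2 CPM that averaged 2 or more in the controls, and across these the batch differences of the groups correlated (Pearson 0.749, Spearman 0.653), a description across genes, which are not independent replicates.

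**Figure D1:**
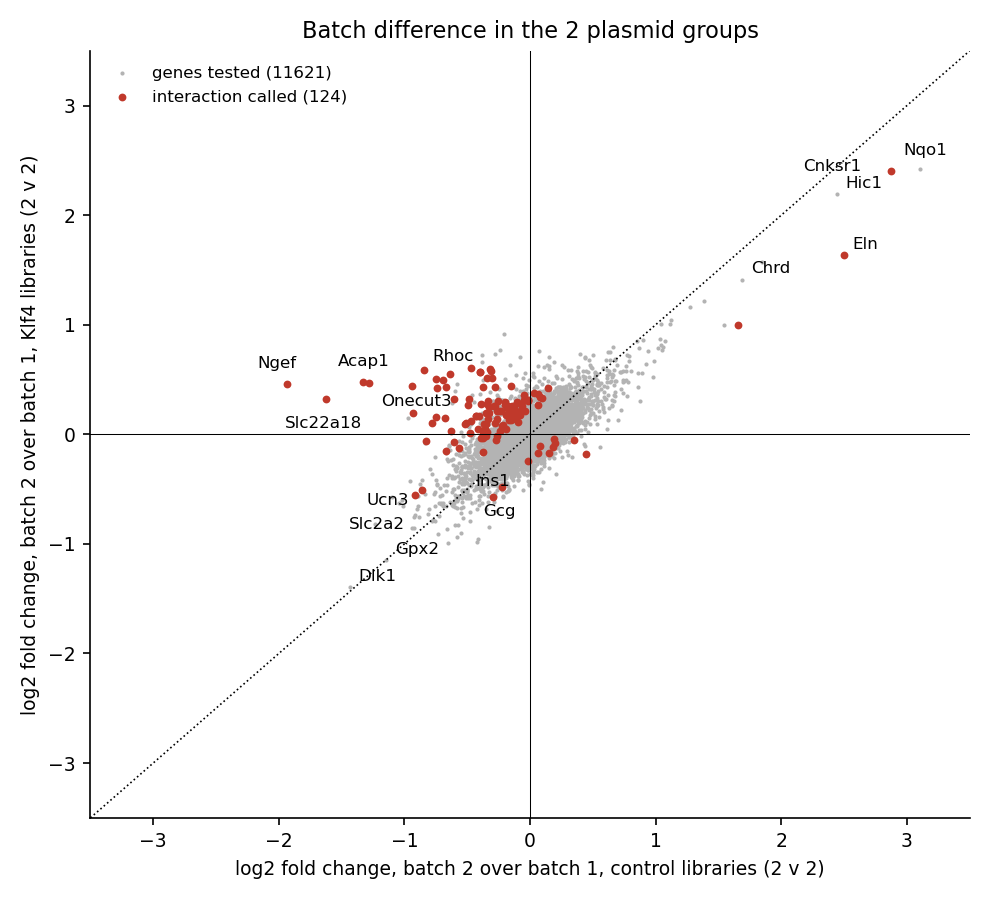
Log2 fold change of batch 2 over batch 1 in the control libraries (x axis, 2 against 2) and in the Klf4 libraries (y axis, 2 against 2) for 11621 genes whose log2 CPM averaged 2 or more over the 8 libraries; the dotted line marks equal values and red points are 124 genes whose batch difference differed between the plasmids. Nqo1, Cnksr1, Hic1 and Eln lie at the upper right and Dlk1 and Gpx2 at the lower left, while Ngef, Slc22a18 and Acap1 lie to the upper left.

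The gene that rose most by the naming rule was Nqo1, a quinone reductase of the antioxidant response, on chromosome 8 from 107388225 to 107403206 (GRCm38, minus strand). In batch 1 it stood at 1.83 and 2.46 CPM in the control libraries and at 4.20 and 4.15 CPM in the Klf4 libraries. In batch 2 the controls were at 17.4 and 19.5 CPM, the Klf4 libraries at 21.6 and 23.4 CPM. No library of a batch overlapped the other batch, and the difference was 2.71 on the log2 scale (SE 0.11, adjusted p = 7e-14 by edgeR). Cnksr1, a scaffold protein of Ras signalling, rose from 8.77 to 11.2 CPM in batch 1 to 53.7 to 69.2 CPM in batch 2. Hic1, a transcriptional repressor, rose from 3.08 to 4.44 CPM to 16.9 to 19.1 CPM. Eln, which encodes elastin, went from 4.56 to 9.23 CPM to 25.4 to 29.5 CPM. These 3 genes had log2 fold changes of 2.63, 2.32 and 2.03. The rest of the 10 highest were Cntnap5b (1.72), the BMP antagonist Chrd (1.55), the collagen subunit Col6a2 (1.30), the receptor kinase Mertk (1.28), the nitric oxide synthase Nos1 (1.28) and the cytokine Thpo (1.22). Chrd and Thpo lie side by side and their exons overlap, so reads may be shared between them.

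Dlk1 fell most by the naming rule, among genes whose log2 CPM averaged 2 or more and whose batches did not overlap within either plasmid. It encodes a membrane-bound Notch-family ligand, is imprinted, and lies on chromosome 12 from 109452823 to 109463336 (plus strand). Its level was 90.3, 88.4, 86.6 and 83.8 CPM in the batch 1 libraries and 32.7, 33.2, 31.7 and 33.6 CPM in batch 2, controls first. The groups were far apart relative to their spread (-1.41 on the log2 scale, SE 0.04, adjusted p = 3.3e-17 by edgeR), and the plasmid groups gave -1.44 and -1.39. Gpx2, a glutathione peroxidase, fell from 7.37 to 9.88 CPM to 2.84 to 4.54 CPM. Igf1r, the receptor of insulin-like growth factor, fell from 91.5, 102.7, 96.0 and 97.8 CPM to 48.9, 53.3, 58.1 and 57.4 CPM. Their log2 fold changes were -1.14 and -0.84. Also among the 10 lowest were Meltf (-1.01), the prostaglandin synthase Ptgs2 (-0.89), Igfbpl1 (-0.89), the potassium channel Kcnk9 (-0.82), the activity-dependent transcription factor Npas4 (-0.82) and the epithelial repressor Ovol2 (-0.82).

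Hormones and granule proteins were lower in batch 2. Of 24 tested genes in this list, 15 fell and 1 rose, with a median log2 fold change of -0.14 against 0.01 over all tested genes. In batch 1, Ins1 (chromosome 19, 52264297 to 52265476, plus strand) read 3946 and 4024 CPM (controls) and 4007 and 3834 CPM (Klf4). Batch 2 read 2806 and 2681 CPM (controls) and 2645 and 2810 CPM (Klf4). Ins2 was at 19410, 19200, 19880 and 18630 CPM in batch 1 and at 14350, 14220, 13100 and 14490 CPM in batch 2. The log2 fold changes were -0.53 for Ins1 and -0.46 for Ins2 (edgeR adjusted p = 8.3e-13 and 2.3e-11), with every batch 2 library below every batch 1 library. The transcripts of the 2 insulin genes are alike, so reads may be split between them. Their summed share of all counts was 2.32% ± 0.0590 in batch 1 and 1.68% ± 0.0664 in batch 2 (SD, n = 4). An exact two-sided permutation of the batch labels within plasmids gave p = 0.0556, the smallest that 36 relabellings allow, and 0.139 after adjustment over the 5 library measures tested.

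Gcg, the glucagon gene, was at 88.2, 82.4, 94.4 and 82.1 CPM in batch 1 and at 59.1, 63.4, 54.3 and 54.3 CPM in batch 2 (-0.59 on the log2 scale, SE 0.05, adjusted p = 7.2e-09 by edgeR). Glucagon is the hormone of α cells. Ucn3, a peptide of mature β cells, showed the largest fall of the list at -0.74, from 44.4 to 47.3 CPM to 25.5 to 28.5 CPM. Neuropeptide Npy fell by 0.36, secretogranin Scg2 by 0.30, Nucb2 by 0.30, chromogranin Chga by 0.28, Vgf by 0.28 and the prohormone convertase Pcsk1 by 0.26 on the log2 scale. Iapp, which is co-secreted with insulin, was at 5581 to 5998 CPM in batch 1 and 5520 to 5868 CPM in batch 2 and did not pass the test (log2 fold change -0.03). Chgb (0.02), Pcsk2 (-0.03) and Ptprn2 (0.03) did not pass it either. Gast, which encodes gastrin, was the 1 gene that rose, from 3.92 to 4.61 CPM to 6.24 to 7.70 CPM. The call of Slc30a8, the zinc transporter of the granule, had a log2 fold change of -0.08 and was lost without control replicate 2, 3 or 4 or Klf4 replicate 1, 2 or 4.

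**Figure D2:**
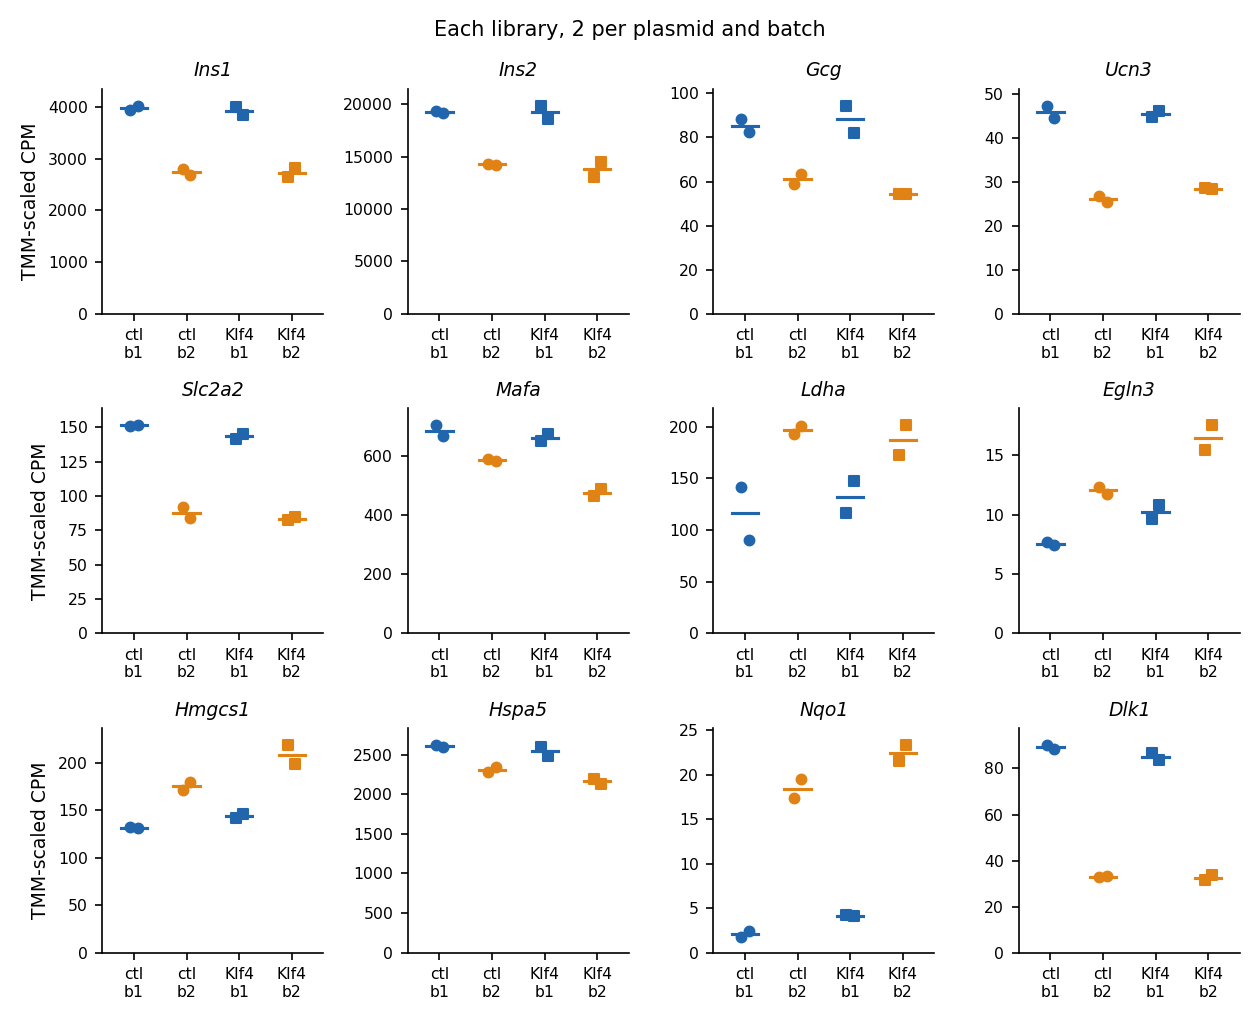
TMM-scaled CPM (y axes, from 0) of 12 genes in each library, blue for batch 1 and orange for batch 2, circles for control (ctl) and squares for Klf4 libraries, with a bar at the mean of 2. Ins1, Ins2, Gcg, Ucn3, Slc2a2, Mafa, Hspa5 and Dlk1 are lower in batch 2 in both plasmid groups, and Ldha, Egln3, Hmgcs1 and Nqo1 are higher.

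Glucose sensing showed 9 lower and 1 higher of 23 tested genes, with a median of -0.08. The glucose transporter Slc2a2 (chromosome 3, 28697903 to 28731359, plus strand) stood at 151.1, 151.6, 141.6 and 145.5 CPM in batch 1 and at 91.8, 83.7, 82.6 and 84.5 CPM in batch 2. That is 1.72-fold lower in batch 2 (-0.78 on the log2 scale, SE 0.03, adjusted p = 1.1e-13 by edgeR), and both plasmid groups gave -0.78 or -0.79. The ATP-sensitive potassium channel fell in both of its subunits, by 0.24 for Kcnj11 and by 0.18 for Abcc8. The calcium channel subunit Cacna1c fell by 0.30. The incretin receptor Glp1r (-0.05) did not pass the test. The higher gene was Ldha, lactate dehydrogenase, which β cells normally keep low.

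Transcription factors of the β cell moved in both directions: 8 of 24 fell, 4 rose and the median was -0.01. These shares, 33.3% lower and 16.7% higher, stand against 11.6% and 13.4% of all tested genes. Mafa, which binds the insulin promoter, fell by 0.35, from 650 to 705 CPM to 465 to 590 CPM. The fall was larger in the Klf4 libraries (-0.48) than in the controls (-0.22), a difference that passed edgeR's interaction test (adjusted p = 0.0082). The secretory regulator Bhlha15 fell by 0.47, St18 by 0.24, Isl1 by 0.17, Hnf4a by 0.16, Mlxipl by 0.14 and Nkx6-1 by 0.12. The pioneer factor Foxa1 rose by 0.54 from a low level, 1.33 to 2.63 CPM in batch 1 and 2.32 to 4.21 CPM in batch 2. Mnx1 (0.16), Esrrg (0.16) and Insm1 (0.10) were the other higher genes. The calls of Insm1 (without any 1 of the 4 control libraries), Esrrg (without control replicate 1 or 3) and Mlxipl (without Klf4 replicate 2 or 3, -0.08 in both) each rested on single libraries, and 2 factors were called higher without control replicate 1 or 3. Pdx1 (-0.02), Pax6 (0.00), Nkx2-2 (-0.05), Neurod1 (0.06), Foxa2 (0.02), Rfx6 (-0.01), Rfx3 (0.05), Glis3 (-0.02), Myt1 (-0.03), Pax4 (0.11) and Hnf4g (0.17) did not pass the test.

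Of the 27 lists, folding in the endoplasmic reticulum had the largest share of called genes: 26 of 30 fell and none rose, against 11.6% of all tested genes that fell. The median was -0.18, and the summed level of the list was 14090 to 14490 CPM in batch 1 and 12210 to 13150 CPM in batch 2. All 26 falls had every batch 2 library below every batch 1 library of the same plasmid, as had 2642 of all 18266 tested genes. Such non-overlap mostly went with a call. It held, in the direction of the call, for 3470 of 3952 called genes whose log2 CPM averaged 2 or more. Derl3, a component of the degradation channel, fell by 0.47, from 23.8 to 24.7 CPM to 16.0 to 19.2 CPM. The co-chaperone Sdf2l1 fell by 0.31 and the disulfide isomerase Pdia4 by 0.31. Hspa5, the main chaperone of the compartment, was chosen for display after its values were seen; it stood at 2625, 2592, 2598 and 2485 CPM in batch 1 and at 2281, 2342, 2195 and 2127 CPM in batch 2 (log2 fold change -0.20, edgeR adjusted p = 1.2e-06). The sensors Ern1 (-0.30) and Eif2ak3 and the transcription factor Xbp1 (-0.20) were among the genes that fell.

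Some genes of this list are known to share a promoter element, the endoplasmic reticulum stress element, to which NF-Y and Atf6 bind. Promoter windows from 250 bases before to 50 bases after the start site, taken from RefSeq on GRCm38.p6, were searched on both strands for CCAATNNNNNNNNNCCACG. A window was at hand for 25 of the 30 tested genes, and 9 of the 25 held a match, against 0.163% of the 12236 tested genes with a window. The match is a description and not a measured binding site. Of the 9 genes with a match 8 fell, with a median of -0.18, and of the 16 without one 14 fell, with a median of -0.19. The element of each gene is written below in its own direction with 10 bases on either side. Capitals mark the searched letters, which are alike because the search required them, while the other bases were free to differ.
Hspa5, chr2:34772015-34772053, plus strand: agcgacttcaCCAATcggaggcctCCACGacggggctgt
Hsp90b1, chr10:86705628-86705666, minus strand: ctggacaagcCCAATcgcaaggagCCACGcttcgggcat
Hsp90b1, chr10:86705523-86705561, plus strand: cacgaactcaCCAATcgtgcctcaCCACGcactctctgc
Pdia6, chr12:17266481-17266519, plus strand: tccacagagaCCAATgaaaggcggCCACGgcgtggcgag
Dnajc3, chr14:118937817-118937855, plus strand: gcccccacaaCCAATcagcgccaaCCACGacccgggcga
Creld2, chr15:88819510-88819548, minus strand: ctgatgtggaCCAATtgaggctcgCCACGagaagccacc
Calr, chr8:84847065-84847103, plus strand: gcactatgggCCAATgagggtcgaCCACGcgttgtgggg
Canx, chr11:50325790-50325828, minus strand: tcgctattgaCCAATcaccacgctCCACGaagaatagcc
Syvn1, chr19:6046522-6046560, plus strand: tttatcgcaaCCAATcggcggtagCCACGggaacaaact
Derl3, chr10:75893232-75893270, minus strand: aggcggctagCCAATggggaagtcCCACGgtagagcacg
In the same order of genes, the log2 fold changes were -0.20 for Hspa5, -0.23 for Hsp90b1, -0.18 for Pdia6, -0.12 for Dnajc3, -0.28 for Creld2, -0.13 for Calr, 0.00 for Canx, -0.17 for Syvn1 and -0.47 for Derl3. Canx, a lectin chaperone, carries the element and was the 1 gene of the 9 that did not pass the test.

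Glycolysis and hypoxia targets moved the other way, with 26 of 35 tested genes higher, 1 lower and a median of 0.27. Ldha (chromosome 7, 46841475 to 46855627, plus strand) was at 141.7 and 90.6 CPM in the batch 1 controls and at 116.3 and 147.1 CPM in the batch 1 Klf4 libraries. In batch 2 it was at 193.1 and 200.7 CPM and at 172.7 and 201.5 CPM, with no overlap between batches (0.63 on the log2 scale, SE 0.09, adjusted p = 1.8e-05 by edgeR). The lactate exporter Slc16a3 rose by 0.61, from 97.7, 70.03, 93.8 and 116.9 CPM to 137.5, 142.6, 138.7 and 157.4 CPM. Within batch 1, control replicate 2 was the lowest library for both genes. Egln3, an oxygen-sensing prolyl hydroxylase and itself a hypoxia target, rose from 7.66, 7.47, 9.63 and 10.8 CPM to 12.4, 11.7, 15.5 and 17.6 CPM (0.68). The summed level of the list was 8992 and 7890 CPM in the batch 1 controls and 8563 and 9308 CPM in the batch 1 Klf4 libraries, against 10110, 10170, 9531 and 10290 CPM in batch 2. The glycolytic enzymes Pgk1 (0.39), Aldoa (0.33) and Gpi1 (0.25), the glucose transporter Slc2a1 (0.33) and the mitophagy receptor Bnip3 (0.43) were among the higher genes. Vegfa, a classical hypoxia target, was the 1 lower gene at -0.10, and the pyruvate kinase Pkm (0.04) did not pass the test.

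The core of the hypoxia response element, ACGTG on either strand, was found in the windows of 20 of 30 members with one (66.7%), against 28.0% of tested genes with a window. Of the 20 with a match 15 rose and 1 fell (median 0.34), and of the 10 without a match 8 rose (median 0.23). Ldha is shown because 1 of its 2 windows held the element 5 times, in part as overlapping matches on both strands that form CACGTG. The window lies at chr7:46845554-46845853 on the plus strand and capitals mark the matches.
Ldha: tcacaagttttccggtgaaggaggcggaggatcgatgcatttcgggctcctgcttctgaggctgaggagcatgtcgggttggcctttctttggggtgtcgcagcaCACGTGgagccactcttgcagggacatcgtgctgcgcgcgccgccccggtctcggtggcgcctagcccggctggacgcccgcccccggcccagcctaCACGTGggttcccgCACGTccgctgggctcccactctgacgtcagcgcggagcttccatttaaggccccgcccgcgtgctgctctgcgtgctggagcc
No measurement of binding at this window was used here.

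Sterol genes rose together. Of 25 tested genes of cholesterol synthesis and uptake, 20 rose and none fell, with a median of 0.21. Hmgcs1, which makes the precursor of mevalonate (chromosome 13, 119690379 to 119708260, plus strand), was at 132.2, 131.2, 141.5 and 146.4 CPM in batch 1 and at 171.9, 179.9, 219.3 and 198.5 CPM in batch 2 (0.48 on the log2 scale, SE 0.03, adjusted p = 1.5e-09 by edgeR). Every batch 2 library lay above every batch 1 library. Fdps, which makes farnesyl pyrophosphate, rose by 0.42 and Fdft1, squalene synthase, by 0.40. Exons of Hmgcs1, Fdps and Fdft1 overlap those of another gene. The sterol-regulated transcription factor Srebf2 rose by 0.33. The sterol regulatory element as TCACNCCAC was in the window of 1 of 17 members, Hmgcs1, against 1.43% of tested genes with a window. That window, chr13:119690101-119690400 on the plus strand, is printed because it belongs to the sterol gene of largest change, with the match in capitals.
Hmgcs1: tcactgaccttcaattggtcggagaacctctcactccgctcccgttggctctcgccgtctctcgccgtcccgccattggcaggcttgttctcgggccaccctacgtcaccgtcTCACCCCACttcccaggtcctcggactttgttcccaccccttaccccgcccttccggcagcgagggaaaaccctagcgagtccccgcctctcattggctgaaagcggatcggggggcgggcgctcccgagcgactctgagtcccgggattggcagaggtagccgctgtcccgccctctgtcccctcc
Fatty acid synthesis had 11 higher and 4 lower of 24 tested genes. The desaturases Scd1 and Scd2 rose by 0.43 and 0.33, and malic enzyme Me1 by 0.29. The count of lower genes in this list was 1 without control replicate 4 and 2 without Klf4 replicate 1.

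Genes in the list of ChREBP targets and fructose metabolism were mostly lower: 9 of 14 fell, 1 rose and the median was -0.19. ChREBP is a glucose-responsive factor and the product of Mlxipl, which is itself among the 9. The median of the list was -0.35 in the controls alone and -0.09 in the Klf4 libraries alone. The interaction test called 4 of the 14, against 0.766% of all tested genes. The gluconeogenic enzyme Fbp2 fell from 82.8, 84.8, 107.6 and 105.2 CPM to 44.2, 44.5, 72.7 and 73.0 CPM (-0.72). Its fall was larger in the controls (-0.92) than in the Klf4 libraries (-0.56), which passed edgeR's interaction test (adjusted p = 0.0011). Arrdc4, an arrestin-like protein, fell by 0.71 and Fbp1 by 0.70. Txnip, an inhibitor of glucose uptake, fell by 0.18 in the fit on all libraries. The controls read 284.2 and 295.4 CPM (batch 1) against 227.1 and 227.0 CPM (batch 2). The Klf4 libraries read 210.4 and 205.2 CPM against 202.0 and 212.9 CPM, where the batches overlapped (interaction 0.35, edgeR adjusted p = 0.00031).

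The list of Nrf2 targets and general antioxidant defence genes showed 18 higher and 1 lower of 30, with a median of 0.14. Gpx2, the glutathione peroxidase that fell by 1.14, is not in this list. After Nqo1, the largest change was in the glutathione transferase Gstm1, which rose by 0.54 from 111.9 to 125.6 CPM to 165.5 to 176.9 CPM. Pgd, of the pentose phosphate pathway, rose by 0.30, and the thioredoxin reductase Txnrd1 by 0.14. Heme oxygenase Hmox1 was at 33.6 to 38.04 CPM in batch 1 and 31.0 to 37.6 CPM in batch 2 and did not pass the test. Gclc, Srxn1 and Slc7a11 of the list did not pass it either. A core of the antioxidant response element, TGACNNNGC on either strand, was in 9 of 25 windows, against 16.6% of tested genes with one; 7 of the 9 and 10 of the other 16 rose. Of 23 heat shock genes and cytosolic chaperones, 9 rose and 1 fell (median 0.10), with Hspb8 (0.35), Hsph1 (0.19) and mitochondrial Hspd1 (0.17) leading. Among p53 targets 7 of 21 rose (33.3%, against 13.4% of all tested genes) and none fell. Trp53 itself, which encodes p53, rose by 0.25. In the list of the integrated stress response, 7 of 34 rose and 6 fell (20.6% and 17.6%, against 13.4% and 11.6% of all tested genes). Ddit4 (0.36), Cebpb (0.35) and Nupr1 (0.32) were on top.

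Genes of mitosis fell in part. In the G2 and M phase list 21 of 34 fell and none rose, with a median of -0.12; without control replicate 4 the count was 13. Mki67, a nuclear protein of cycling cells, was at 714.7, 757.8, 647.1 and 660.7 CPM (batch 1) against 583.6, 551.1, 594.0 and 582.8 CPM (batch 2), a log2 difference of -0.26. Its fall was larger in the controls (-0.37) than in the Klf4 libraries (-0.16; edgeR interaction adjusted p = 0.024). The phosphatase Cdc25c fell by 0.32 and the kinesin Kif23 by 0.27. In the G1 and S phase list 5 of 34 rose and 4 fell (1 fell without control replicate 4), with the helicase subunit Mcm3 at 0.19, the cyclin Ccnd2 at -0.28 and a median of -0.01. These shares, 14.7% higher and 11.8% lower, are near the 13.4% and 11.6% of all tested genes. Replication-dependent histone genes, whose messages normally lack a poly(A) tail, were at a low summed level of 181.5 to 195.2 CPM in batch 1 and 133.9 to 147.9 CPM in batch 2. Of 20 tested histone genes 8 fell (5 without control replicate 3) and none rose, with a median of -0.52, such as Hist1h1d at -0.83. Histone genes are near-identical copies, so their reads may be split.

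Activity-dependent genes fell in part. Of 34, 13 fell and 3 rose, with a median of -0.13; without control replicate 4 the number of higher genes was 6. Npas4 fell from 19.8, 19.3, 18.6 and 20.2 CPM to 12.2, 11.3, 9.79 and 11.01 CPM, and the nuclear receptors Nr4a3 and Nr4a2 fell by 0.57 and 0.54. The serum-responsive genes Fos and Egr1 did not pass the test; control replicate 4 was the lowest library for both, at 188.3 CPM against 251.3 to 283.5 CPM for Fos. The interferon list had 10 lower and 2 higher of 32 (31.2% and 6.25%, against 11.6% and 13.4% of all tested genes). In it the chemokine Cxcl10 was at -1.08 from a level of at most 1.52 CPM and the dsRNA-response gene Oasl1 at -0.43. Genes of MHC class I presentation split into 4 higher and 3 lower of 17 (23.5% and 17.6%, against 13.4% and 11.6% of all tested genes). The class I gene H2-M3 was at -0.78 and its transactivator Nlrc5 at -0.75, both from low levels of at most 2.46 CPM. The proteasome subunit Psmb10 was at 0.32. H2-K1, at -0.06, did not pass the test.

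Imprinted genes had 9 lower and 4 higher of 25. Besides Dlk1, its neighbours on chromosome 12 that are made from the maternal copy fell, Meg3 by 0.35, Mirg by 0.23 and Rian by 0.10 on the log2 scale. Kcnq1ot1, a long antisense RNA, fell by 0.77 from 6.27 to 12.1 CPM to 3.46 to 5.72 CPM. H19 had a log2 fold change of 1.23 that came from the Klf4 libraries, since the controls held it at 0 to 0.0207 CPM; the call was lost without Klf4 replicate 2 or 4. Of 16 nuclear long non-coding RNAs 8 fell and none rose, with Neat1 at -0.71 and Malat1 at 0.00. Dedifferentiation and progenitor markers went both ways, 7 higher and 5 lower of 21 (33.3% and 23.8%, against 13.4% and 11.6% of all tested genes). Dlk1 and Tph1 (-0.88) were lowest and Gata4 (0.73) highest. The clock list had 6 lower and 3 higher of 20, led by Nfil3 (-0.35), Dbp (0.34) and Per2 (-0.33). Neuronal genes of endocrine cells had 11 higher (6 without control replicate 1) and 3 lower of 28. Uchl1, a deubiquitinase of neurons, rose by 0.88, from 18.8, 18.2, 31.7 and 31.8 CPM to 33.5, 35.3, 56.2 and 59.5 CPM; an antisense gene overlaps it. Adhesion and matrix genes had 6 higher and 5 lower of 31 (19.4% and 16.1%, against 13.4% and 11.6% of all tested genes).

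Cytosolic ribosomal protein genes rose by little, 36 of 83 with none lower and a median of 0.06. Without control replicate 3 the number was 23, and with an offset for GC content and length 3 fell. The largest changes were in Rps26 (0.25), Rps29 (0.21) and Rpl30 (0.21). In the controls alone 43 ribosomal protein genes rose and none fell (median 0.10). In the Klf4 libraries alone 14 rose and 1 fell (median 0.04), and the interaction test called none. Subunits of oxidative phosphorylation encoded in the nucleus gave 26 higher and 1 lower of 76 (median 0.06), with Ndufs6 (0.22), Ndufb3 (0.19) and Ndufa12 (0.17) on top. The number of higher genes fell to 10, 11, 8 and 17 when control replicates 1, 2, 3 and 4 were left out in turn. With the offset for GC content and length 19 rose and 3 fell. The calls came mainly from the controls, where 27 rose and 1 fell (median 0.09). In the Klf4 libraries alone 1 rose and 1 fell (median 0.02), though the interaction test called none of the 76. Of 15 mitochondrially encoded genes 2 rose and 3 fell in the fit on all libraries. The count of lower genes was 0 without Klf4 replicate 2 and 1 without Klf4 replicate 3 or 4. The plasmid groups went different ways. In the controls alone 6 rose and none fell (median 0.06), and in the Klf4 libraries alone 1 rose and 5 fell (median -0.09). The interaction test called 5 of the 15, against 0.766% of all tested genes.

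**Figure D3:**
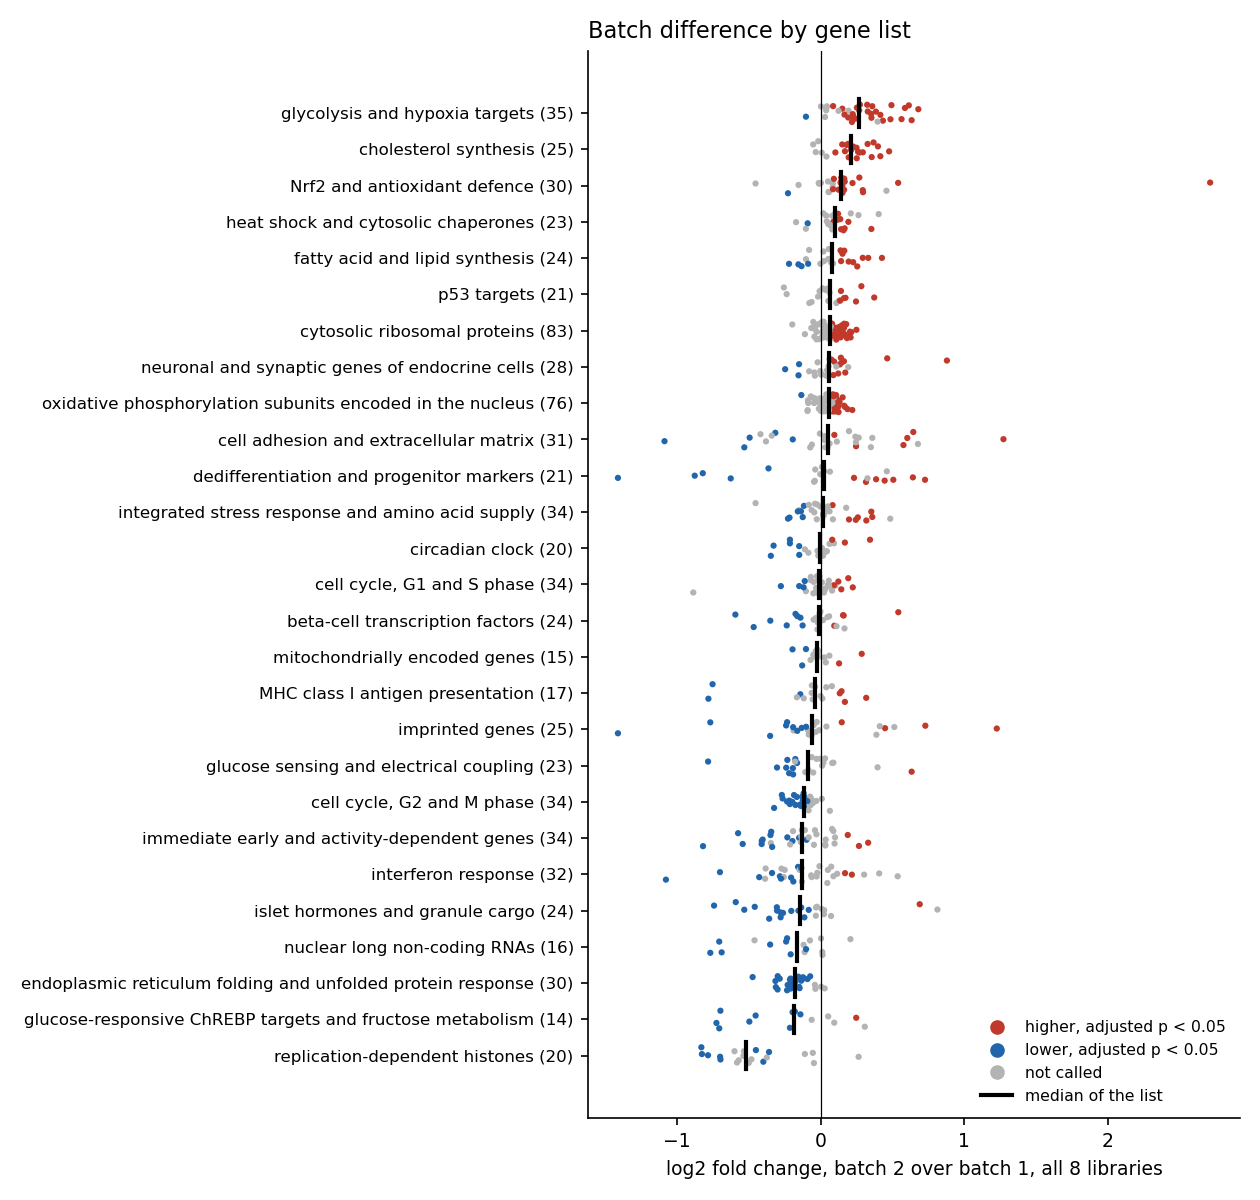
Log2 fold change of batch 2 over batch 1 in all 8 libraries (x axis) for each tested gene of 27 lists (y axis, number tested in brackets), red for called higher, blue for called lower and grey for not called, with a black bar at the list's median. Glycolysis and hypoxia targets (median 0.27) and cholesterol synthesis (0.21) lie to the right. Histones (-0.52), ChREBP targets and fructose metabolism (-0.19) and endoplasmic reticulum genes (-0.18) lie to the left.

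Markers of cell types were read for the identity of the cultures. The 12 β-cell markers summed to 31870 to 33500 CPM in batch 1 and 24680 to 26740 CPM in batch 2. Most of this sum was insulin, with Ins2 alone at 18630 to 19880 CPM and 13100 to 14490 CPM. Of the 12 markers 8 fell and none rose, and Iapp, G6pc2, Pdx1 and Glp1r did not pass the test. In bulk RNA, fewer cells of a type and less RNA per cell cannot be told apart. Of 12 α-cell markers (1155 to 1272 CPM in batch 1, 1070 to 1180 CPM in batch 2, Ttr alone at 529.2 to 627.1 CPM) 10 were tested, 4 fell and 1 rose. The δ-cell list summed to 129.2, 135.3, 104.9 and 106.3 CPM in control replicates 1 to 4. In Klf4 replicates 1 to 4 it summed to 235.0, 226.1, 257.5 and 252.1 CPM. Most of this was Cd24a, at 75.8 to 89.5 CPM in the controls and 182.7 to 229.4 CPM in the Klf4 libraries. The list held its hormone Sst at 0 to 0.190 CPM. Of its 3 tested markers the ghrelin receptor Ghsr fell by 0.66, from 40.8 to 43.6 CPM to 24.8 to 27.3 CPM. The γ-cell list summed to 1.25 to 2.75 CPM and 0.933 to 3.01 CPM, with its hormone Ppy at 0 to 0.276 CPM, and of 3 tested markers Spp1 fell by 1.09 on the log2 scale, from at most 0.760 CPM. The acinar list summed to 10.7 to 14.8 CPM over all libraries, with Amy2a5, Prss2 and Reg1 at 0 in each, and the leukocyte list to 7.05 to 9.12 CPM. Endothelial markers summed to 33.7 to 41.1 CPM in batch 1 and 28.6 to 41.9 CPM in batch 2 and neuronal and glial markers to 62.1 to 68.5 and 52.0 to 65.3 CPM. Fibroblast markers summed to 5.99, 5.50, 5.35 and 4.68 CPM in control replicates 1 to 4. In Klf4 replicates 1 to 4 they summed to 24.6, 24.8, 30.75 and 31.5 CPM, mostly Dcn (14.2 to 21.3 CPM). Dcn was at 0 to 0.101 CPM in the controls. Ductal markers summed to 86.2 to 112.7 CPM in batch 1 and 57.0 to 80.3 CPM in batch 2. Between the batches, 2 of 5 tested ductal markers fell and 1 rose, and 1 of 6 tested fibroblast markers fell and 1 rose. Their part in the results above was not tested.

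The median batch difference also varied by a small amount between chromosomes. Over the 20 chromosomes with at least 100 tested genes, the median log2 fold change ran from -0.0335 on chromosome 9 to 0.055 on chromosome 15, with 11 above 0 and 9 below. Its sign was the same for all 20 in the control and in the Klf4 libraries, which share no library but come from the same batches. Batch differences of single genes correlate between these groups, so large gene sets tend to share a sign. Gene sets of equal size drawn without regard to position were not compared, so an effect of chromosome was not tested. On chromosome 15, 162 of 721 tested genes were higher and 60 lower. On chromosome 9, 69 of 988 were higher and 162 lower. The median deviation of the genes of chromosome 15 lay between -0.0266 and -0.0159 log2 units in batch 1 and between 0.0154 and 0.0298 in batch 2. In this measure the batches did not overlap for 9 chromosomes that were higher and 6 that were lower, and they overlapped for 5. The sign held in 18 alternatives for each chromosome except chromosome 3, which changed sign with a filter at 1 CPM.

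**Figure D4:**
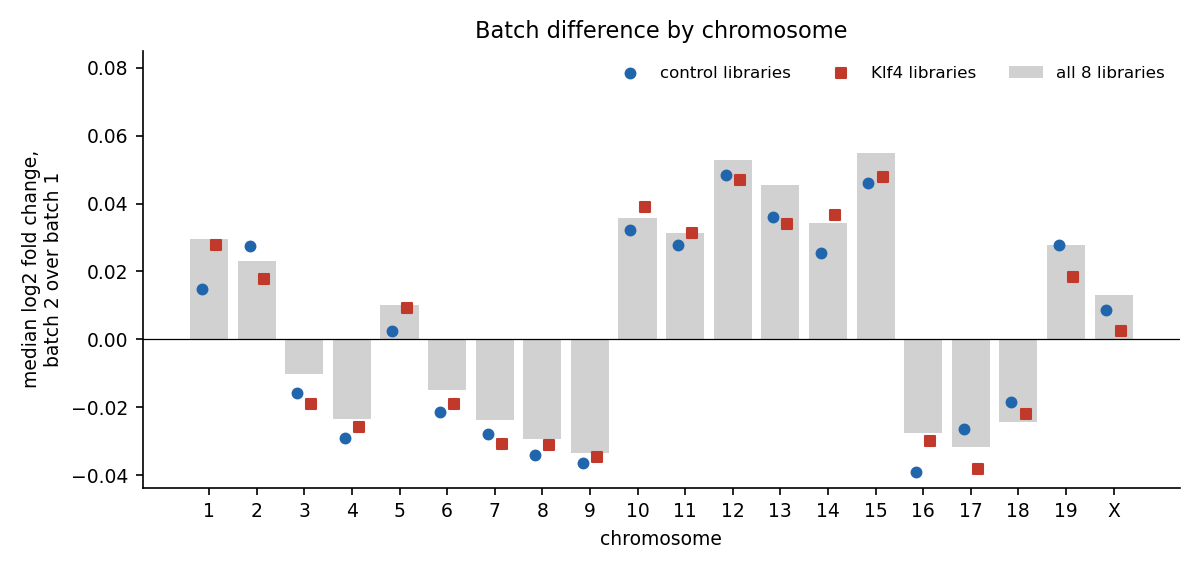
Median log2 fold change of batch 2 over batch 1 (y axis) by chromosome (x axis), as grey bars from 0 for all 8 libraries, blue circles for the control libraries and red squares for the Klf4 libraries. Circle and square lie on the same side of 0 on each chromosome, with chromosomes 15, 12 and 13 highest and chromosome 9 lowest.

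In windows of 25 neighbouring genes whose log2 CPM averaged 2 or more, a setting chosen after the data were seen, the median ran from -0.15 to 0.17, and 5% of 11167 windows lay below -0.06 and 5% above 0.09. The lowest window was on chromosome 7 from 64756091 to 75754609, where 8 of 25 genes fell and none rose, Igf1r and Arrdc4 among them. The highest was on chromosome 14 from 66297031 to 70468832, where 16 rose and 1 fell, among them Bnip3l of the hypoxia list.

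For 140 of 18266 tested genes (0.766%) the batch difference itself differed between the plasmids by edgeR's interaction test, and 1942 did at an unadjusted p under 0.05. Of the 140, 124 had a more positive batch difference in the Klf4 libraries and 16 in the controls. The count moved to 261 without control replicate 1, 78 without control replicate 3, 77 without control replicate 4, 82 without Klf4 replicate 1 and 48 without Klf4 replicate 2. Among called genes whose log2 CPM averaged 2 or more, the 5 of largest interaction in size were far higher in the Klf4 libraries than in the controls in both batches. Rhoc, a small GTPase, was at 3.35 and 3.39 CPM in the batch 1 controls and 1.80 and 1.95 CPM in the batch 2 controls, and in the Klf4 libraries it was at 16.4 and 14.9 CPM and then at 24.0 and 23.4 CPM. The log2 fold changes were -0.84 and 0.59 (interaction 1.44, edgeR adjusted p = 3.9e-06). Ngef, an exchange factor of small GTPases, was at 0.531, 0.349, 0.182 and 0.0414 CPM in control replicates 1 to 4, which is 25, 17, 9 and 2 counts. The Klf4 libraries read 11.1 and 9.87 CPM (batch 1) against 14.6 and 14.5 CPM (batch 2). Slc22a18, Acap1 and Onecut3 had the same shape, with batch differences of -1.62, -1.33 and -1.28 in the controls and 0.32, 0.48 and 0.47 in the Klf4 libraries. Klf4 moved likewise, by -0.17 in the controls and 0.18 in the Klf4 libraries (interaction 0.37, edgeR adjusted p = 0.0057). A count per gene does not separate reads of the plasmid from those of the cell's own Klf4 gene.

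**Figure D5:**
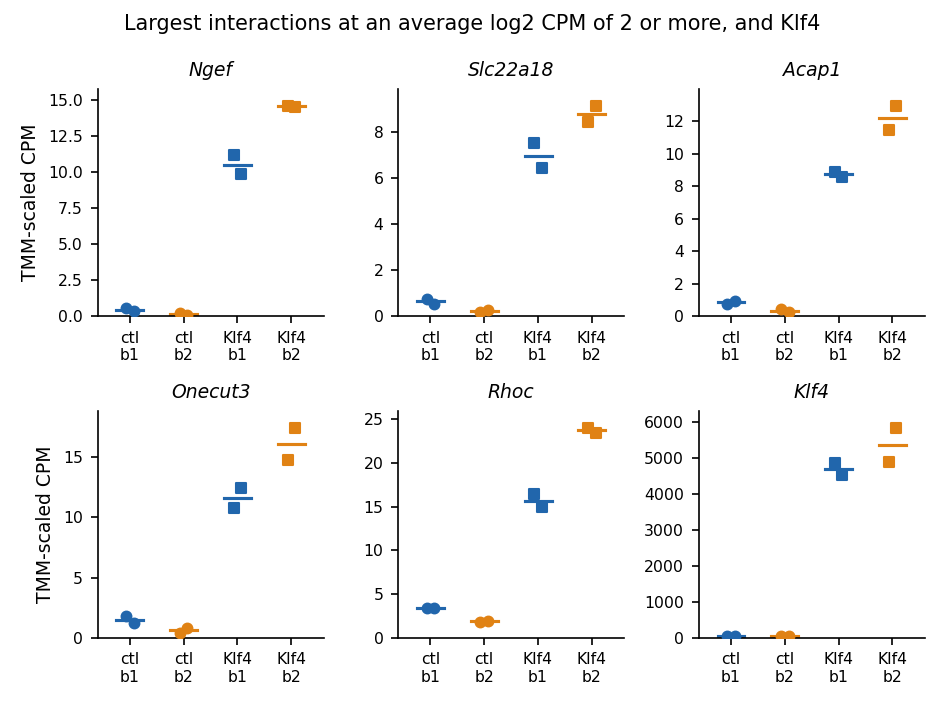
TMM-scaled CPM (y axes, from 0) in each library of Klf4 and of the 5 genes of largest interaction in size among called genes whose log2 CPM averaged 2 or more, blue for batch 1 and orange for batch 2, circles for control (ctl) and squares for Klf4 libraries, with a bar at the mean of 2. For the 5 genes the control points are lower in batch 2 and the Klf4 points higher; the control levels of Klf4, 36.1 to 42.8 CPM, lie near 0 on its axis.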

How the data were processed

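RNA-seq of 8 MIN6 libraries starts here from a table the authors deposited, in which each library has a column of raw counts by gene. The submitters' processing notes name FastQC, STAR, featureCounts and edgeR and the build mm10; versions, annotation and strand setting are not given in the sources used here. The extraction text speaks of islets, but every sample is labelled Min6. All 55536 pairs of gene identifier and symbol match GENCODE M21, which gave coordinates, gene types, GC content and lengths.

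Counts were fitted in edgeR 4.0.16 (R 4.3.3) with filterByExpr by batch (minimum count 10), TMM factors, and terms for plasmid and batch (glmQLFit, glmQLFTest). P-values were adjusted by Benjamini-Hochberg over all genes tested and called under 0.05. CPM were computed here from the counts and the TMM factors. Gene lists, markers and comparisons were chosen with earlier results of these data known, so lists are described by counts and medians with no test of their own. Named genes were Ins1, Ins2, Gcg, Klf4, the 10 highest and 10 lowest called genes whose log2 CPM averages 2 or more and whose batches did not overlap within either plasmid, up to 3 called genes per list of largest change, islet hormones and transcription factors, the 5 called interactions of largest size among genes whose log2 CPM averages 2 or more, and the leading genes of windows; other genes were chosen after their values were seen, and some genes that meet the rule are not reported here. Genes whose exons overlap another gene, or with near-identical copies, are uncertain without a stated strand setting. Alternatives included DESeq2 1.42.0 and limma-voom (limma 3.58.1), and the closing section gives their effect. The fits were tested on simulated data.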

Additional observations from a re-analysis of the deposited data

Results flagged for a closer look

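The batch difference depended on the plasmid for 140 genes by edgeR's interaction test. Among named genes, the interaction (log2 fold change of batch 2 over batch 1 in the Klf4 libraries minus that in the controls) was 2.40 for Ngef (adjusted p = 0.0075), 1.96 for Slc22a18 (0.0065), 1.82 for Acap1 (0.0020), 1.76 for Onecut3 (0.0010) and 1.44 for Rhoc (3.9e-06), all by edgeR. It was 0.37 for Klf4 and Fbp2 and 0.22 for Mki67. On the other side it was -1.82 for Tns4 (edgeR adjusted p = 0.0024), -0.85 for Eln, -0.65 for Nos1, -0.46 for Cnksr1 and -0.25 for Mafa. Eln, Nos1 and Cnksr1 were higher in batch 2 in both plasmid groups and by more in the controls. Tns4, a focal adhesion protein, rose in the controls from 0.488 and 0.287 CPM to 3.20 and 3.46 CPM and in the Klf4 libraries from 3.00 and 2.21 CPM to 5.66 and 7.01 CPM.

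Single libraries stood apart from the other 3 of their batch in 7 of 312 checks. Chance would flag about 1 in 20, or 15.6 here, if the libraries of a batch were alike. Each check pooled control and Klf4 libraries, so a difference between plasmids can hide a deviating library. The number flagged therefore cannot be set against the number given by chance. In batch 1, Fdps was lower in control replicate 2 (5.50 CPM against 5.94 to 6.005), Neurod1 was lower in Klf4 replicate 1 (186.1 CPM against 209.6 to 212.6) and Gm3164, a predicted gene, was higher in control replicate 1 (0.786 CPM against 0.328 to 0.387). In batch 2, Fbp1 was higher in control replicate 4 (7.04 CPM against 4.66 to 4.98) and Mcm3 was higher in control replicate 3 (307.3 CPM against 293.8 to 295.6). H2-M3, an MHC class I gene (0.418 CPM against 0.538 to 0.550), and Pcsk1n, an inhibitor of prohormone convertase (387.5 CPM against 440.7 to 450.9), were lower in Klf4 replicate 3.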

How the results depend on the processing

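The 4576 changed genes became 2879 at an adjusted p under 0.01, 755 at an adjusted p under 0.05 and log2 fold changes of 0.5 or more in either direction, and 1219 without the plasmid term, whose difference then enters the spread; other tools, filters, scalings and an offset for GC content and length gave 4280 to 4937, the difference averaged over plasmids 5048, and leaving out 1 library 3611 to 4111. The same 2 thresholds gave 2000 and 651 genes in the controls, 1908 and 716 in the Klf4 libraries, and 62 and 68 for the interaction. The DESeq2 Wald test called 1968 genes in the Klf4 libraries, and without a filter 265 genes passed the interaction test. Leaving out 1 library gave 2488 to 3526 genes in the controls, 1556 to 2873 in the Klf4 libraries and 48 to 261 for the interaction. Of 125 named genes called changed, 76 kept the call without the plasmid term, 118 with the DESeq2 Wald test and 115 to 121 with 1 library left out. In the direction a list moved less, counts of 1 to 3 genes shifted with single libraries, Vegfa for example being lost without control replicate 1 or Klf4 replicate 2 or 3. With the difference averaged over plasmids, Ngef (-0.735), Slc22a18 (-0.646) and Onecut3 (-0.405) turned negative and were called, and Acap1 (-0.424) and Rhoc (-0.123) turned negative uncalled. All 5, positive and uncalled in the fit on all libraries, were also negative and uncalled by the DESeq2 Wald test. The insulin difference of -0.6435 percentage points had an exact permutation p of 0.0286 over all 70 relabellings, the smallest possible.

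Same-numbered libraries did not deviate together once batch and plasmid means were removed (r -0.04 in batch 1, 0.08 in batch 2), and each number lies in 1 batch, so the replicate block was fitted as a correlation in limma-voom: it gave 5338 changed genes and 98 interactions, against 4670 and 98 without the block. The correlation within a block was -0.134 in the fit of changed genes. A negative value narrows the error of a difference between blocks, such as batch, so 5338 is not a stricter count. The block cost no named gene its call. Comparisons within plasmids rest on 2 libraries a side, and depth limits genes such as Ngef, with 25, 17, 9 and 2 counts in the controls.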

Other observations

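Classes of transcript differed in their median batch difference, in the same direction in both plasmid groups for each class named here. Protein-coding genes had a median log2 fold change of 0.01 over 14537 tested genes. It was -0.16 for 441 genes that the annotation types as TEC, -0.24 for 65 sense-intronic transcripts, -0.08 for 680 antisense transcripts and -0.06 for 747 long intergenic non-coding RNAs, and 0.08 for 1032 processed pseudogenes. Few of these passed the test one by one: 5 of the 441 were called higher and 29 lower, and among the pseudogenes 22 were higher and 7 lower. By exonic GC content, the median was -0.02 in the lowest of 8 equal bins and 0.03 in the highest. The bins between lay at 0.002 to 0.016 in no steady order. By exonic length the median fell from bin to bin, from 0.03 in the shortest genes to -0.005 in the longest. In the controls alone those ends were 0.04 and -0.03, and in the Klf4 libraries alone 0.01 and 0.001.

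Over all tested genes, including those of low count, the lowest window of 25 neighbours was on chromosome 14 from 3049285 to 7951588, with a median of -0.57, 7 genes lower and none higher. Its called genes include the predicted genes Gm2974 and Gm3164, whose calls were each lost without at least 3 of the 8 libraries in turn. The next was the histone cluster on chromosome 13 from 23353103 to 23752886, at -0.45, and the third held Dlk1 on chromosome 12, at -0.23. The highest, at 0.20, was on chromosome 13 from 3634032 to 9668928, in which 11 genes rose, Akr1c14 (0.59) among them, and 2 fell, one of them Ucn3.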
